A study of Mus musculus with 14 samples.

Results

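Reads of red cell and platelet lineage genes were examined in RNA from sorted spleen T cells of leukemic mice. The set had 9 genes of the 24091 in the count table, taken as the genes whose symbol equals one of the listed names. Of these, 6 are red cell lineage genes (Alas2, Car1, Car2, Klf1, Epor and Slc4a1) and 3 are platelet lineage genes (Pf4, Ppbp and Itga2b). The comparison was between 8 Mir142+/+BCR-ABL mice, a model of chronic phase chronic myeloid leukemia (CP CML), and 6 Mir142−/−BCR-ABL mice, a model of blast crisis (BC CML) in which both copies of the microRNA gene Mir142 are deleted in the germline. Every mouse of both groups carried the SCLtTA and BCR-ABL transgenes on a C57Bl/6j background, was 6 to 10 weeks old, male or female, and had BCR-ABL switched on for 3 weeks by removal of tetracycline. In this model the regulatory sequence of SCL drives the tetracycline-controlled activator in blood stem and progenitor cells, and SCL is another name of Tal1, itself a red cell and megakaryocyte factor. Each library was made from 200000 T cells of 1 mouse, and mice without BCR-ABL were not analysed here.

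The libraries held between 15703702 and 19914531 reads counted on genes in CP CML and between 16145537 and 19399720 in BC CML. Mir142 had 302 to 650 reads per CP CML mouse and 0 in the 6 BC CML mice, as the genotypes state. The defining T cell genes were high in every library: Cd3g was between 426 and 476 CPM (counts scaled to library size, after TMM normalization) in CP CML and between 640 and 711 in BC CML. Of 10 T cell markers tested, 6 were higher and 1 lower in BC CML, where 32.6% of all genes tested were higher and 32.7% lower. Cd3g passed as higher with a log2 fold change of 0.59, while Cd3e at 0.02 and Cd3d at -0.08 did not pass. Cd8a was higher, at 0.87, and Cd4 was the lower one, at -0.73. The names of the CP CML animals begin with a shared number and those of the BC CML animals with a different one, so what this number stands for, which the labels do not say, and the genotype cannot be told apart. The name of BC CML replicate 5 ends in RP, whose meaning is not given in the sources used here, and leaving that library out changed no call of a member.

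Red cells and platelets arise from a shared progenitor of the bone marrow, and in the mouse also of the spleen, which is a site of red cell production under stress. Red cell precursors respond to erythropoietin through Epor, switch on globin, heme and membrane genes under factors such as Gata1 and Klf1, and lose their nucleus. Megakaryocytes fill their granules with chemokines such as those of Pf4 and Ppbp, carry the fibrinogen receptor whose alpha chain is encoded by Itga2b, and shed platelets that keep some RNA but have no nucleus. T cells belong to neither lineage, although several genes shared by blood cells are read in all of them.

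The promoters of 6 members are shown since Gata factors bind GATA motifs and Klf1 binds CACCC motifs in red cell genes. Each window runs from 150 bases before to 30 bases after the RefSeq start of the gene in GRCm38.p6, 180 bases in all, and capitals mark GATAA or CACCC on either strand (TTATC or GGGTG on the printed strand). The windows are chrX:150547267-150547446 on the plus strand for Alas2, chr8:84901832-84902011 on the plus strand for Klf1, chr9:21963547-21963726 on the minus strand for Epor, chr5:90772285-90772464 on the plus strand for Pf4, chr5:90768368-90768547 on the plus strand for Ppbp and chr11:102469854-102470033 on the minus strand for Itga2b.
Alas2: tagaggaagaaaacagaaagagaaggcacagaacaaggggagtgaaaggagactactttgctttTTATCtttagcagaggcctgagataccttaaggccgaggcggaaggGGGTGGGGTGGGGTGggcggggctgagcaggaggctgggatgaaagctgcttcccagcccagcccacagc
Klf1: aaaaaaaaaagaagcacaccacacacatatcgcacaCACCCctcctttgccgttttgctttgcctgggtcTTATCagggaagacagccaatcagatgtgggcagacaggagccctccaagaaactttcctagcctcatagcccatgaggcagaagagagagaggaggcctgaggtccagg
Epor: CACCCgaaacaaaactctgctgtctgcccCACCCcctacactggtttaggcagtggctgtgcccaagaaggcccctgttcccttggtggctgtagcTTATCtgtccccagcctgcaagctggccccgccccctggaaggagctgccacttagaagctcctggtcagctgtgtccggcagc
Pf4: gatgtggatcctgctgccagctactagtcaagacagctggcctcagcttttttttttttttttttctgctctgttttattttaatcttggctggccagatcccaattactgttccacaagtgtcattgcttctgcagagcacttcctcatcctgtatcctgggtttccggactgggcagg
Ppbp: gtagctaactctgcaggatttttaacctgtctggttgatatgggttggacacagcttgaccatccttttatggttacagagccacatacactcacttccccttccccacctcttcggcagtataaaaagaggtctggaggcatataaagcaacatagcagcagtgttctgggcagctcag
Itga2b: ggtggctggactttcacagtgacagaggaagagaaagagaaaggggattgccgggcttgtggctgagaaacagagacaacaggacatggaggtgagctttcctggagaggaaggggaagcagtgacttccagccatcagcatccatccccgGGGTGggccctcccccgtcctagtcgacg
The 3 red cell windows each held both motifs. Positions were counted from the RefSeq start, negative before it. GATAA lay on the opposite strand, with its first printed base at -86 in Alas2, -80 in Klf1 and -54 in Epor. Alas2 had a run of CACCC on the opposite strand at -40, -35 and -30, the matches following each other without a gap, Klf1 had CACCC at -114 and Epor at -150 and -121. Of the 3 platelet windows, that of Itga2b held CACCC on the opposite strand at position 2, and those of Pf4 and Ppbp held neither. No match of one motif overlapped a match of the other. Among all 32851 RefSeq promoter windows of the same length, 15.4% held GATAA, 42.1% CACCC and 5.39% both. A match is a description of the letters and not a binding site. Slc4a1, Car1 and Car2, the 3 members higher in BC CML in the main test below, had no window in the promoter set used and are named only.

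BC CML compared with CP CML had more reads of the red cell genes Slc4a1 and Car2 and fewer of Itga2b, while Alas2 did not pass the test. Slc4a1 was 2.8-fold and Car2 2.26-fold higher in BC CML, and for both genes the 6 BC CML mice exceeded the 8 CP CML mice without overlap. Car1 was 4.0-fold higher, also without overlap, but it had enough reads for the test only through the BC CML libraries, so that its difference was built into its selection. By edgeR's quasi-likelihood test, 3 of the 5 members with enough reads to test were higher and 1 was lower at a Benjamini-Hochberg adjusted p below 0.05, with Car1 among the 3. Over all 12248 genes tested, 32.6% were higher and 32.7% lower, so a called gene is common in this comparison. Without the genes that reached the filter's cutoff in enough libraries of 1 group alone, the median log2 fold change was 0.84 over the 4 members left and -0.01 over the 11541 genes left. The other members, Klf1, Epor, Pf4 and Ppbp, had too few reads for the filter. With the summed neutrophil and monocyte markers, which were also higher in BC CML, as a covariate, 0 members passed, as described with those markers. In bulk RNA, a difference in how many cells of a type were present and a difference in RNA per cell cannot be told apart.

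**Figure D1:**
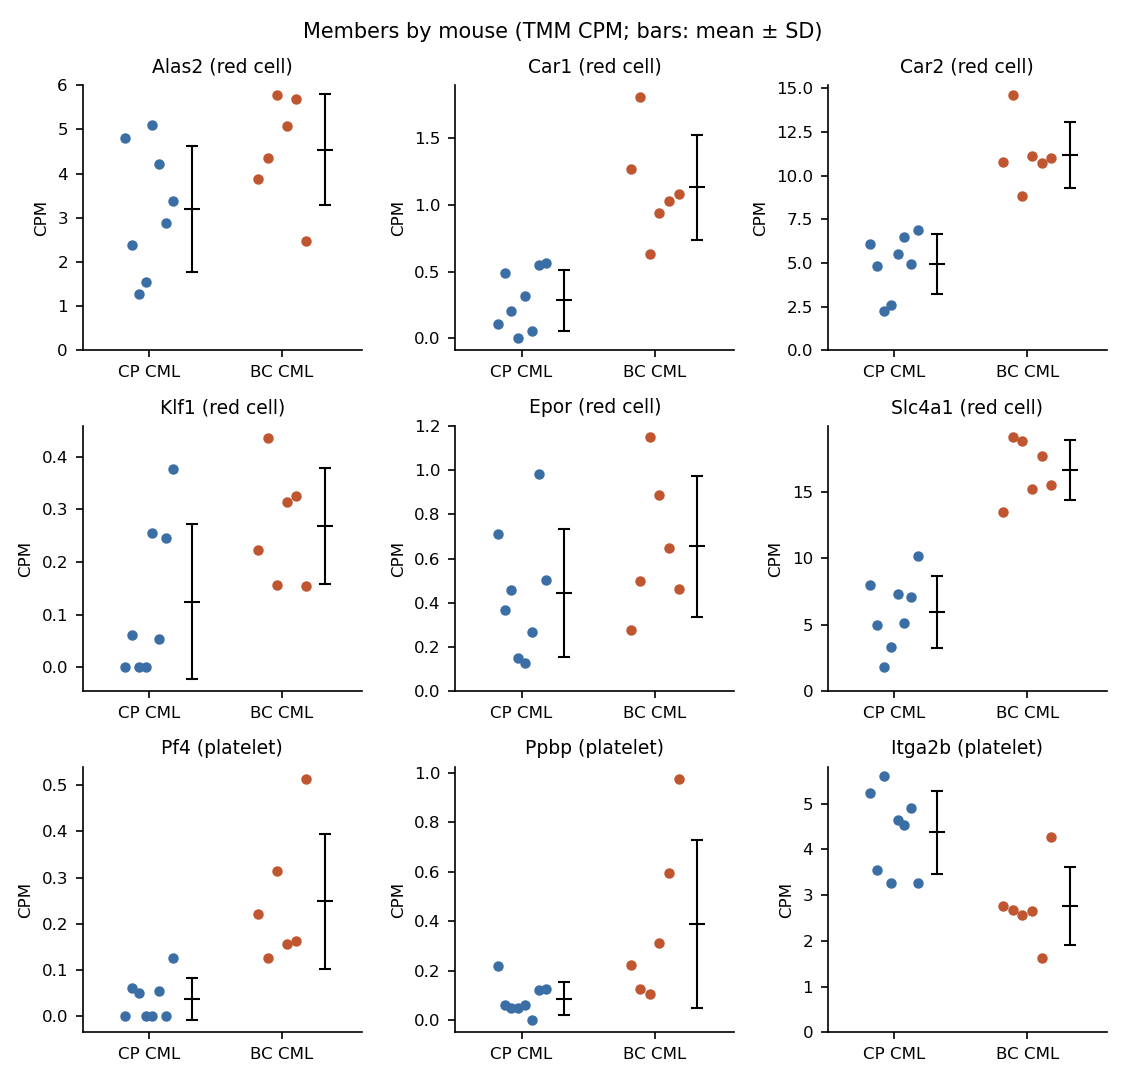
Normalized level (CPM, vertical axis) of each of the 9 members, with 1 point per mouse for 8 CP CML and 6 BC CML mice and bars for the mean ± SD. The groups do not overlap for Car1, Car2 and Slc4a1, with Slc4a1 between 1.84 and 10.2 in CP CML and between 13.5 and 19.1 in BC CML.

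Alas2, which encodes the red cell form of the first enzyme of heme synthesis, lies at chrX:150547417-150570622 on the plus strand (mm10, as are all positions of genes here). It had 25, 50.5 and 88 reads in the lowest, median and highest CP CML mouse and 48, 83.5 and 110 in BC CML. The level was 3.2 ± 1.43 CPM (SD, n = 8) in CP CML against 4.54 ± 1.25 (SD, n = 6). The groups overlapped, and 5 of 6 BC CML mice were above the CP CML median. The log2 fold change of 0.51 (standard error, SE, 0.28) did not pass the test (adjusted p = 0.125). Alas2 shares 295 exon bases with Apex2, a DNA repair gene on the opposite strand that had 1495 reads over the CP CML and 1208 over the BC CML libraries. The strand setting of the counting is not given in the sources used here, so reads in the shared bases may have been assigned to either gene or to none.

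Slc4a1 encodes band 3, the chloride and bicarbonate exchanger of the red cell membrane, and lies at chr11:102348820-102365281 on the minus strand. It had 36, 105 and 162 reads in the lowest, median and highest CP CML mouse and 243, 304 and 359 in BC CML. Its level was 5.99 ± 2.7 CPM (SD, n = 8) against 16.6 ± 2.26 (SD, n = 6). The log2 fold change was 1.48 (SE 0.26, adjusted p = 0.000167). The highest CP CML mouse, replicate 8 at 10.2 CPM, stayed below the lowest BC CML mouse, replicate 1 at 13.5 CPM. Such a separation of the groups, with BC CML above, held for 19.3% of all genes tested.

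The carbonic anhydrases interconvert carbon dioxide and bicarbonate, and Car1 and Car2 are the main forms of red cells, although Car2 is also made in many other cells. Both genes lie on chromosome 3, Car1 at chr3:14766214-14808365 on the minus strand and Car2 at chr3:14886426-14900770 on the plus strand, with Car3 among the 78061 bases between them. Car2 had 44, 84 and 120 reads in the lowest, median and highest CP CML mouse and 168, 204 and 235 in BC CML. Its level rose from 4.96 ± 1.72 CPM (SD, n = 8) to 11.2 ± 1.9 (SD, n = 6), a log2 fold change of 1.18 (SE 0.21, adjusted p = 0.000126). In BC CML 4 mice were between 10.7 and 11.1 CPM, replicate 2 was higher at 14.6 and replicate 3 lower at 8.81. Car1 had few reads, with 0, 4.5 and 9 in CP CML and 12, 20 and 29 in BC CML. The groups did not overlap, and the log2 fold change was 2.00 (SE 0.43, adjusted p = 0.000609). Car1 reached the filter's cutoff of 0.545 CPM in 2 of 8 CP CML and 6 of 6 BC CML libraries, where the filter asks for 6 libraries.

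Klf1, a factor that switches on adult globin and red cell membrane genes, lies at chr8:84901928-84905295 on the plus strand. It had 0 to 6 reads per CP CML library, with 3 libraries at 0, and 3 to 7 per BC CML library. Epor, the erythropoietin receptor, lies at chr9:21958899-21963576 on the minus strand and had 2 to 16 reads in CP CML and 5 to 22 in BC CML. For both genes the groups overlapped, and neither passed the test when no filter was applied, with log2 fold changes of 1.14 (SE 0.61, adjusted p = 0.129) for Klf1 and 0.56 (SE 0.40, adjusted p = 0.255) for Epor. Without CP CML replicate 8, which had the most Klf1 reads of its group, Klf1 passed (log2 fold change 1.62, adjusted p = 0.0373). A change in these regulators was not detected with all libraries.

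Among the platelet members, Pf4 and Ppbp encode the chemokines platelet factor 4 and platelet basic protein, which are stored in the alpha granules. They neighbour each other on the plus strand of chromosome 5, Ppbp at chr5:90768518-90770062 and Pf4 at chr5:90772435-90773383, with 2373 bases between them. Pf4 had 0, 0.5 and 2 reads in the lowest, median and highest CP CML mouse, with 4 mice at 0, and 2, 3.5 and 10 reads in BC CML. Ppbp had 0, 1 and 4 reads in CP CML, with 1 mouse at 0, and 2, 5 and 19 in BC CML. BC CML replicate 6 was the highest of the 14 libraries for both genes, and the groups overlapped at the lowest counts. Without a filter Pf4 had a log2 fold change of 2.6 (SE 0.60, adjusted p = 0.000968) and Ppbp of 2.12 (SE 0.57, adjusted p = 0.00338), in a fit of 17599 genes of which 26.0% were higher. With any single library left out, the adjusted p stayed between 0.000443 and 0.00448 for Pf4 and between 0.00135 and 0.0219 for Ppbp. The counts are of a few reads per library, and the fold changes depend on them.

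Itga2b encodes the integrin alpha IIb chain, which pairs with the beta 3 chain of Itgb3 as the fibrinogen receptor of platelets and is also made by some blood progenitors. It lies at chr11:102453297-102469883 on the minus strand, with 88016 bases between it and Slc4a1, and Slc4a1 and Itga2b begin 14591893 and 14696370 bases beyond the deleted Mir142 gene on that chromosome. Itga2b had 52, 76.5 and 110 reads in CP CML and 30, 49.5 and 83 in BC CML. The level fell from 4.37 ± 0.912 CPM (SD, n = 8) to 2.76 ± 0.85 (SD, n = 6), a log2 fold change of -0.66 (SE 0.19, adjusted p = 0.00515). Of the CP CML mice, 5 were above the highest BC CML mouse, which was again replicate 6, at 4.26 CPM. Across all genes tested, 17.6% had every BC CML mouse below every CP CML mouse, and Itga2b was not among them. Slc4a1 and Itga2b thus moved in opposite directions, as did Itga2b and, in the fit without a filter, the chemokine genes Pf4 and Ppbp.

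Levels of different members were compared per length, as the CPM divided by the length of the gene model in kilobases (RPKM). In CP CML the order was Car2 at 2.78 ± 0.965, Alas2 at 1.63 ± 0.728, Slc4a1 at 1.32 ± 0.595 and Itga2b at 0.641 ± 0.134 (SD, n = 8 mice), followed by Epor, Car1, Klf1, Ppbp and Pf4, which averaged between 0.0624 and 0.236. Car2 was above Alas2 in 8 of 8 mice and Itga2b above Epor in 8 of 8. Alas2 was above Slc4a1 in 6 of 8 mice by less than their SD, and among the lowest 5 each neighbour differed from the next by less than the SD. In BC CML Car2 led at 6.27 ± 1.06, then Slc4a1 at 3.67 ± 0.499, Alas2 at 2.31 ± 0.637 and Car1 at 0.908 ± 0.318 (SD, n = 6 mice), and each of the first 3 was above the next in 6 of 6 mice. Pf4, Itga2b, Ppbp and Epor, between 0.347 and 0.426, differed from each other by less than their SD, and Klf1 was lowest at 0.175 ± 0.0721. Slc4a1 was thus above Alas2 in BC CML, while their order in CP CML lay within the spread.

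**Figure D2:**
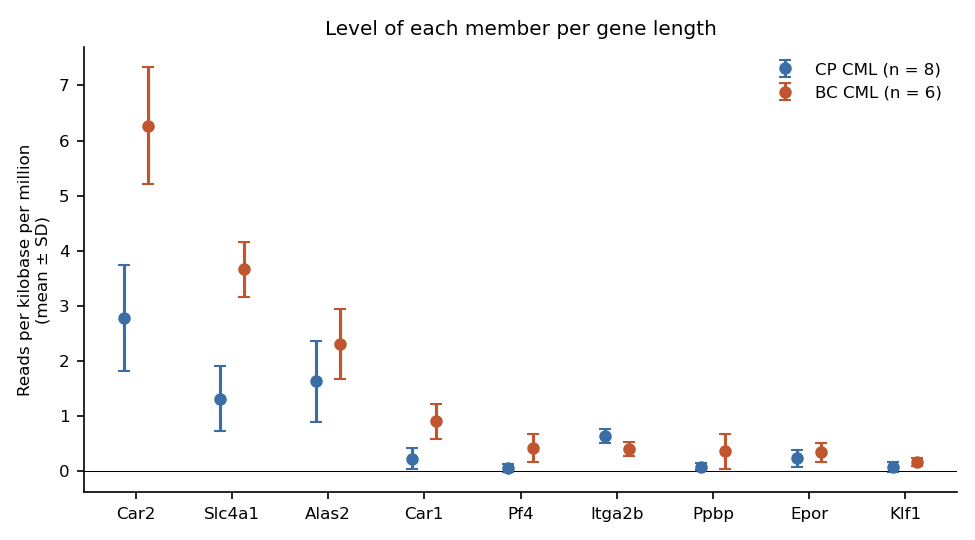
Level per length (RPKM, vertical axis) of each member as mean ± SD over 8 CP CML mice (blue) and 6 BC CML mice (orange). Car2 is highest in both groups, at 2.78 and 6.27, and Slc4a1 lies above Alas2 in BC CML, at 3.67 against 2.31.

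The members were also compared within libraries, where depth cancels, as the ratio of reads of one gene to another gene or to the summed globin genes. These 6 ratios were chosen after the values had been seen, so their tests describe the differences already given and are no independent evidence. The ratio of Slc4a1 to Alas2 reads was 1.22 in the lowest, 1.89 in the median and 3.0 in the highest CP CML mouse, and 3.0, 3.37 and 6.27 in BC CML. The mean log2 ratio was 1.03 higher in BC CML (exact two-sided permutation p = 0.00133, adjusted p = 0.004 over 6 ratios). The ratio of Slc4a1 to the summed globin genes Hba-a2, Hbb-bs and Hbb-b2, the oxygen carriers of red cells, was between 0.0885 and 0.199 in CP CML and between 0.241 and 0.332 in BC CML, with no overlap. This log2 difference was 1.10 (exact two-sided permutation p = 0.000666, adjusted p = 0.004). The ratio of Car2 to the globin genes was 0.73 higher on the log2 scale (exact permutation p = 0.00333, adjusted p = 0.00666) and that of Car2 to Alas2 0.65 higher (exact permutation p = 0.0167, adjusted p = 0.025). The ratio of Alas2 to the globin genes was between 0.0544 and 0.0883 in CP CML and between 0.0461 and 0.0955 in BC CML, a log2 difference of 0.07 (exact permutation p = 0.647). That of Car2 to Slc4a1 differed by -0.37 (exact permutation p = 0.0633, adjusted p = 0.0759). Without CP CML replicates 3 and 4, the log2 difference was 1.00 for Slc4a1 to Alas2 and 1.04 for Slc4a1 to the globin genes.

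**Figure D3:**
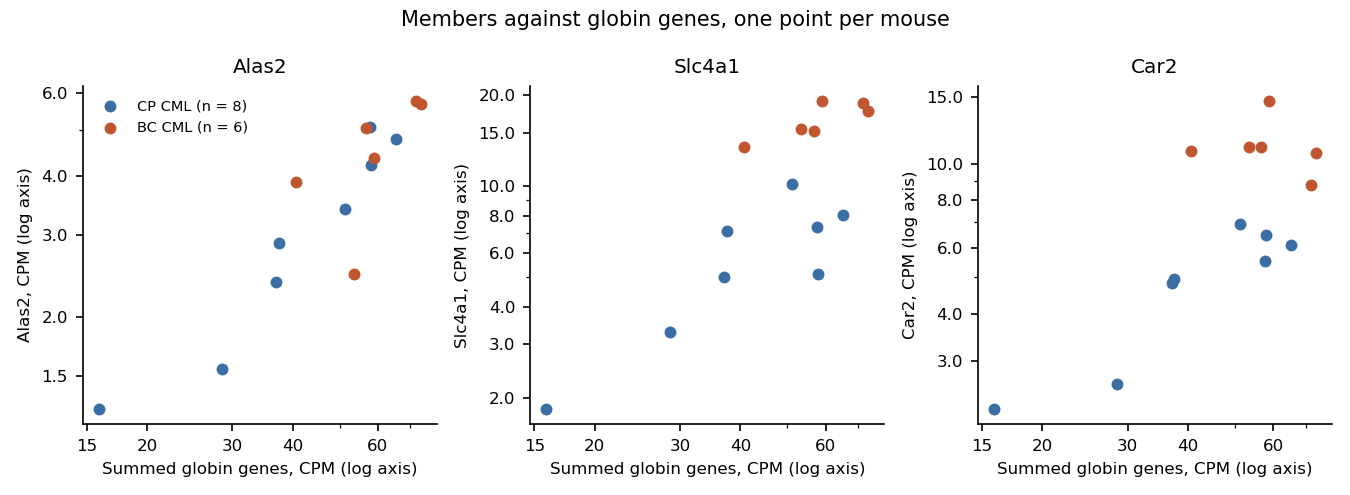
Level of Alas2, Slc4a1 and Car2 (CPM, log axis) against the summed level of 3 globin genes (CPM, log axis), with 1 point per mouse for 8 CP CML (blue) and 6 BC CML (orange) mice. At like globin levels the BC CML points lie above the CP CML points for Slc4a1 and Car2, while for Alas2 the groups overlap, with BC CML replicate 6 lowest in its group at 2.47 CPM.

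The globin genes themselves did not separate the groups. Their sum was 15.9, 44.4 and 65.3 CPM in the lowest, median and highest CP CML mouse and 40.6, 57.8 and 73.6 in BC CML. Hbb-bs, the one with the most reads, had a log2 fold change of 0.41 (SE 0.27, adjusted p = 0.199) and Hba-a2 of 0.35 (SE 0.24, adjusted p = 0.208), while Hbb-b2 passed at 0.63 (SE 0.24, adjusted p = 0.0309). The globin genes are near-identical copies, so the counting may have split or dropped their reads. With the summed globin genes as a covariate, chosen after the values had been seen, Slc4a1 kept a log2 fold change of 1.10 (adjusted p = 4.16e-05) and Car2 of 0.91 (adjusted p = 0.00016), Itga2b was at -0.60 (adjusted p = 0.0204) and Alas2 at 0.08 (adjusted p = 0.702).

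Covariation between mice was examined within each group for members with at least 10 reads in 4 of 8 CP CML or 3 of 6 BC CML libraries, 21 pairs in all, on log2 CPM. In CP CML, Car2 and Slc4a1 had r = 0.907 over 8 mice (exact permutation p = 0.00327, adjusted p = 0.0409) and rho = 0.857 (exact permutation p = 0.0107). Alas2 and Car2 had r = 0.906 (exact permutation p = 0.00389, adjusted p = 0.0409) and rho = 0.762 (exact permutation p = 0.0368). Alas2 and Slc4a1 had r = 0.831 (exact permutation p = 0.00908), which missed the threshold after adjustment (adjusted p = 0.0635). These relations rested on CP CML replicates 3 and 4, the lowest for all 3 genes: without them r was 0.482 for Car2 and Slc4a1, 0.537 for Alas2 and Car2 and 0.292 for Alas2 and Slc4a1. In BC CML none of the 15 pairs passed after adjustment, the smallest adjusted p being 0.175 for Alas2 and Itga2b (r = -0.85 over 6 mice, exact permutation p = 0.0333). Before adjustment 2 of the 15 were below 0.05. By rho, 0 of the 21 pairs passed after adjustment and 5 were below 0.05 before it. Itga2b had r of 0.148 with Alas2, -0.0874 with Car2 and -0.209 with Slc4a1 in CP CML.

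The members were also set against summed marker genes in the same mice, 50 pairs in all, chosen after the values had been seen. Alas2 followed the globin sum in CP CML (r = 0.956, exact permutation p = 0.000149, adjusted p = 0.00744), also without the 2 farthest mice (r = 0.936), with rho = 0.929 (adjusted p = 0.0558). Car2 and the globin sum had r = 0.922 in CP CML (exact permutation p = 0.00102, adjusted p = 0.0254) and 0.734 without the 2 farthest mice. Slc4a1 and the globin sum had r = 0.874 in CP CML, which fell to 0.314 without the 2 farthest mice, and 0.84 in BC CML, with adjusted p of 0.109 and 0.193 by the exact permutation test. The B cell sum went with the same members in CP CML, with r of 0.779 for Alas2, 0.795 for Car2 and 0.843 for Slc4a1 and, without the 2 farthest mice, 0.967, 0.902 and 0.893. None of these 3 passed after adjustment, with adjusted p of 0.168, 0.168 and 0.109 by the exact permutation test. The covariation was therefore not shown to be particular to the globin genes. In BC CML no member passed with any of the 5 marker sums, the smallest adjusted p being 0.193, and 1 of these 30 pairs was below 0.05 before adjustment.

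Over the 14 mice with each group's mean removed, as a description, the genes most like Alas2 were the globin genes Hba-a2 (r = 0.912), Hbb-bs (0.88) and Hbb-b2 (0.87). Those most like Slc4a1 were Btnl10 (0.886), a butyrophilin-like gene, Hbb-bs (0.871) and Evi5 (0.871). Alpk1 (0.906) and Btnl10 (0.889) were among the 3 genes most like Car2, and Itga2b was most like Trappc6b (0.827), A430005L14Rik (0.825) and Avil (0.802). Among 12248 genes, Car2 stood at place 7 by likeness to Slc4a1 (r = 0.849) and Slc4a1 at place 10 by likeness to Alas2 (r = 0.763), whereas Itga2b stood at place 9388 by likeness to Slc4a1 (r = -0.191). All values of a mouse come from 1 library and share its depth.

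Other red cell lineage genes were read from a list of 33, of which 29 were in the table and 26 were tested. In BC CML 18 of them rose and 2 fell, where 32.6% of all genes tested were higher and 32.7% lower. The genes with the lowest adjusted p among those higher were Sptb, the beta chain of spectrin under the membrane, with 1.36 (SE 0.15, adjusted p = 2.9e-07), Epb42, protein 4.2 that binds band 3, with 1.54 (SE 0.21, adjusted p = 3.89e-06), and Blvrb, a biliverdin reductase, with 0.88 (SE 0.12, adjusted p = 4.17e-06). The groups did not overlap, with BC CML above, for 8 of the 26 tested and for 19.3% of all genes tested. Of the 18, 3 (Rhag, Dmtn and Trim10) reached the filter only through BC CML, which built in their difference, and of the other 23 tested 15 rose and 2 fell, with a median log2 fold change of 0.88. These 15 still include Add2 and Tspan33, each at the cutoff in 2 of 8 CP CML and 5 of 6 BC CML libraries. Their entry thus also leaned on BC CML, and the 23 are not free of this selection. With the neutrophil and monocyte sum as a covariate, 4 of the 26 were higher and 2 lower. Epb41, protein 4.1, fell by 0.58 on the log2 scale (SE 0.04, adjusted p = 1.54e-09), with every BC CML mouse lower. It was between 206 and 361 CPM over all libraries and is made in many cell types. Gypc was the other gene that fell, with a log2 fold change of -0.41. The transferrin receptor gene Tfrc was at -0.04 and Bpgm, the bisphosphoglycerate mutase of red cells, at 0.00, and neither passed. Rhd, Trim58 and Cldn13 had too few reads.

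**Figure D4:**
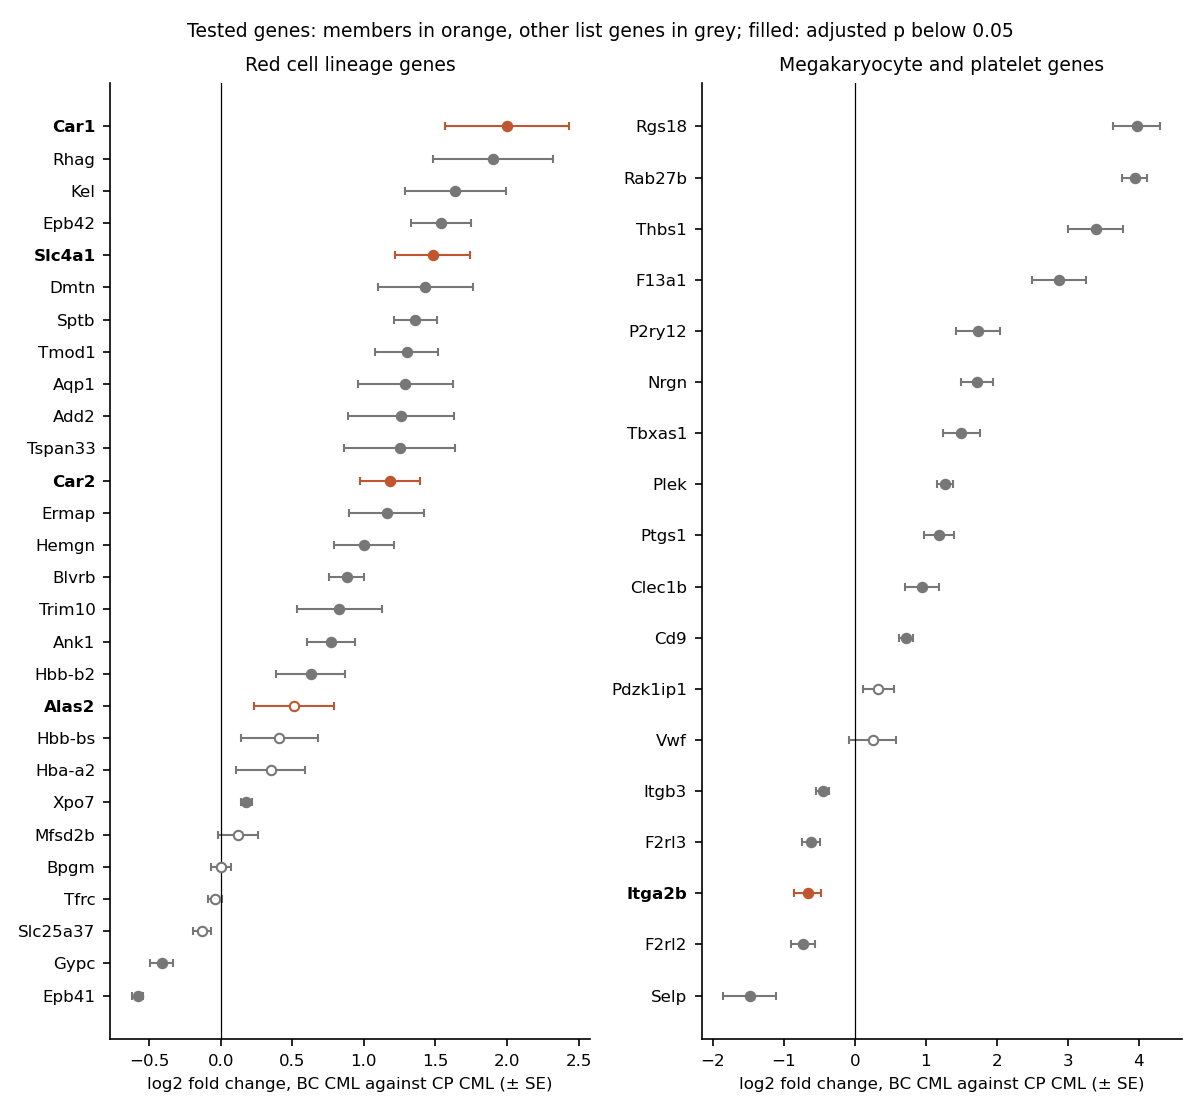
log2 fold change of BC CML against CP CML (horizontal axis, ± standard error) for the tested members in orange and other tested genes of the red cell list (left) and platelet list (right) in grey, with filled points for an adjusted p below 0.05. Most red cell genes lie right of 0 with Alas2 at 0.51 and not filled, and Itga2b at -0.66 lies among the 5 platelet genes that fell.

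Heme synthesis genes other than Alas2, of a pathway not particular to red cells, numbered 12 with transporters included, and all were tested. In BC CML 3 rose and 4 fell, with a median log2 fold change of 0.05. These counts lie near the shares over all genes tested, 32.6% higher and 32.7% lower, and do not set the list apart. Abcb10, a transporter of the inner mitochondrial membrane, stood apart with a log2 fold change of 1.34 (SE 0.07, adjusted p = 1.6e-11), from 5.66 to 7.1 CPM in CP CML to 15.9 to 18.8 in BC CML. Cpox, coproporphyrinogen oxidase, rose by 0.40 (adjusted p = 5.91e-05), while Fech, which inserts the iron in the last step, fell by 0.34 (adjusted p = 0.000119) and Uros, uroporphyrinogen III synthase, by 0.49 on the log2 scale (adjusted p = 0.000168). Alas1, the form of the first enzyme that all cells have, was at 0.11 and did not pass (adjusted p = 0.183).

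Of 31 other megakaryocyte and platelet genes, 17 were tested, of which 11 were higher and 4 lower. The shares over all genes tested were 32.6% and 32.7%. The lowest adjusted p belonged to Rab27b, a granule transport GTPase, with 3.94 (SE 0.18, adjusted p = 5.28e-12), Rgs18, a brake on G protein signals, with 3.97 (SE 0.33, adjusted p = 2.35e-08), Plek, pleckstrin, with 1.27 (SE 0.11, adjusted p = 4.7e-08), and Thbs1, thrombospondin 1, with 3.39 (SE 0.39, adjusted p = 1.16e-06). Rgs18, Plek and Thbs1 are also made by myeloid cells. Rab27b, Rgs18 and Thbs1 reached the filter's cutoff in 5, 4 and 4 of 8 CP CML libraries and in 6 of 6 BC CML libraries, so they entered the test only through BC CML and a difference was built into their selection, as it was in the other direction for Selp. Of the 13 genes without this limit, 8 rose and 3 fell, with a median log2 fold change of 0.94. With the neutrophil and monocyte sum as a covariate, 9 of the 17 were higher and 1 lower. The partner of Itga2b, Itgb3, was at 85.3 to 119 CPM in CP CML and 65.6 to 86.6 in BC CML and fell by 0.45 on the log2 scale (SE 0.09, adjusted p = 0.000272). The thrombin receptor genes F2rl2 and F2rl3 and the P-selectin gene Selp also fell. The remaining 14 genes had too few reads to test, among them the von Willebrand receptor chains Gp1ba, Gp1bb, Gp5 and Gp9, and the platelet tubulin Tubb1. Their sum was between 0.122 and 1.01 CPM in CP CML and between 0.734 and 3.34 in BC CML, highest in BC CML replicate 6, which was also highest for Pf4 and Ppbp. Gp6, Mmrn1 and Myl9 had 0 reads in each CP CML library. In a single library 0 reads allow a mean of up to 3 by counting error alone, and 8 libraries at 0 together allow less. Their highest BC CML counts were 1, 6 and 7 reads. In the quasi-likelihood test without a filter, where 26.0% of genes were higher, Myl9 (log2 fold change 4.75, adjusted p = 0.000558) and Mmrn1 (4.53, adjusted p = 0.00722) passed as higher. Gp6 did not (1.2, adjusted p = 0.283).

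Of 17 transcription factors of these lineages, 16 were tested, 9 were higher and 3 lower, and the median was 0.59. Across all genes tested 32.6% were higher and 32.7% lower. Gata1, the factor that both lineages depend on, was between 4.34 and 6.43 CPM in CP CML and between 3.19 and 5.82 in BC CML and did not pass (log2 fold change -0.28, SE 0.15, adjusted p = 0.11). Tal1 was higher by 0.73 (adjusted p = 0.00447). The lowest adjusted p belonged to Klf3, which fell by 0.53 (adjusted p = 3.21e-08), Mef2c, which rose by 3.56 (SE 0.27, adjusted p = 4.53e-08), Runx1, which fell by 0.61 (adjusted p = 2.36e-06), and Meis1, which rose by 2.88 on the log2 scale (SE 0.38, adjusted p = 3.35e-06). Meis1 reached the filter's cutoff in 0 of 8 CP CML and 6 of 6 BC CML libraries, so its difference was built in. Of the 14 factors without this limit, 7 rose and 3 fell, and with the neutrophil and monocyte sum as a covariate 2 of the 16 were higher and 3 lower. Klf3 at 140 to 255 CPM and Runx1 at 53.1 to 106 CPM over all libraries are factors that T cells also make. Fli1, a megakaryocyte factor that T cells make too, was between 108 and 127 CPM over all libraries and did not pass.

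Genes that act downstream of Epor and of many cytokine receptors numbered 12, of which 10 were tested, 5 were higher and 3 lower, with a median of 0.49. For this list and the carbonic anhydrases below, the shares over all genes tested were 32.6% higher and 32.7% lower. Sh2b3, an adaptor that restrains Jak2, rose by 0.92 (SE 0.05, adjusted p = 8.88e-11), Cish, a feedback inhibitor, by 1.88 (SE 0.10, adjusted p = 1.03e-10) and Bcl2l1, which encodes the survival protein Bcl-xL, by 1.08 (SE 0.07, adjusted p = 3.18e-10). Stat5b fell by 0.47 on the log2 scale (SE 0.04, adjusted p = 4.3e-08), and Jak2 at 0.06 did not pass (adjusted p = 0.38). These genes also serve receptors of T cells, and Cish was between 35.7 and 162 CPM over all libraries. Of the 14 other carbonic anhydrase genes, 5 were tested, 1 was higher and 2 lower, and the median was -0.29. Car12, a membrane form, fell by 1.00 (SE 0.18, adjusted p = 0.000146), Car5b, a mitochondrial form, fell by 0.38 (adjusted p = 0.0441) and Car11 rose by 0.83 on the log2 scale (adjusted p = 0.0096), while Car5a and Car6 had 0 reads in each BC CML library. Without a filter, 3 of the 14 were higher and 2 lower, where 26.0% of 17599 genes were higher. In that fit Car5b no longer passed (adjusted p = 0.0726), while Car5a passed as lower (adjusted p = 0.017) and Car4 (adjusted p = 0.0269) and Car8 (adjusted p = 0.0278) as higher. These last 3 genes, named after their values were seen, had few reads.

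Markers of other cell types moved between the same groups, where 32.6% of all genes tested were higher and 32.7% lower. Of 16 neutrophil and monocyte markers, 14 were higher in BC CML and none lower. Ly6g and Ctsg reached the filter only through BC CML, which built in their difference, and of the other 14 markers 12 were higher. The sum of the 16 was 94.2 to 750 CPM in CP CML and 857 to 2253.5 in BC CML. S100a8 was between 2.05 and 117 CPM in CP CML and between 122 and 370 in BC CML. Of 7 B cell markers tested, 5 were higher, with sums of 58.9 to 174 and 99.7 to 490 CPM, and of 7 basophil, mast cell and progenitor markers tested, 4 were higher and 1 lower, with sums of 21.9 to 38 and 64.7 to 83.9 CPM for all 10. The lower marker, Cd200r3, reached the filter only through CP CML, as did Mcpt8, and of the other 5 markers 4 were higher and 0 lower. Of 4 dendritic cell markers tested, 3 were higher, Itgax with a log2 fold change of 2.74 (adjusted p = 4.83e-07). Of 7 endothelial markers, Emcn was at 0 in every library, and the only one tested was Pecam1 (-0.08, adjusted p = 0.315), which blood cells make too. CP CML replicates 3 and 4, lowest for Alas2, Car2 and Slc4a1, were also lowest for the neutrophil, B cell and globin sums, and BC CML replicate 6, highest for Pf4, Ppbp and Itga2b in its group, was highest for the neutrophil and B cell sums. Without CP CML replicates 3 and 4, Slc4a1 was at 1.23 (adjusted p = 7.14e-06), Car2 at 0.94 (adjusted p = 1.28e-05), Car1 at 1.70 (adjusted p = 0.00182), Itga2b at -0.65 (adjusted p = 0.00944) and Alas2 at 0.26 (adjusted p = 0.327).

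With the neutrophil and monocyte sum as a covariate, which had r = 0.803 with the group, 0 of the 5 tested members passed in edgeR's quasi-likelihood test, and 0 had an unadjusted p below 0.05. Slc4a1 was then at 0.59 (adjusted p = 0.186), Car2 at 0.34 (adjusted p = 0.315), Car1 at 0.85 (adjusted p = 0.364), Itga2b at -0.65 (adjusted p = 0.126) and Alas2 at -0.05 (adjusted p = 0.948). The part of other cell types in the members' differences was not tested further, since the sum and the group are closely tied. Within groups, Slc4a1 and the neutrophil sum had r = 0.794 in CP CML, 0.259 there without the 2 mice farthest from the median, and -0.0451 in BC CML, with adjusted p of 0.16 and 0.972 by the exact permutation test. For Car2 these r were 0.877, 0.258 and 0.164, with adjusted p of 0.132 and 0.969 by the same test. In CP CML Alas2 had r = 0.637 and Itga2b -0.229 with this sum, and neither passed.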

How the data were processed

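The authors trimmed the reads with Trimmomatic and FASTP, aligned them to mm10 with STAR (v. 2.6.0) and deposited raw read counts per gene by HTSeq-count v.0.11.1, with gene positions and lengths in kilobases, without normalization. Tool names and versions are from the methods and the submitters' processing notes. The annotation and strand setting of the counting are not given in the sources used here. Each mouse is 1 library, grouped by its title.

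Counts of 14 libraries were fitted with edgeR 4.0.16 in R 4.3.3: filterByExpr on the group (12248 genes), TMM normalization, glmQLFit with robust estimation and glmQLFTest, with the group as the only term and Benjamini-Hochberg adjustment at 0.05. Standard errors were computed from the fold change and the F statistic. log2 CPM used a prior count of 2. The depth of 15703702 to 19914531 reads limits genes of a few reads, and limits from 0 reads cover counting error only. Single ratios and correlations used exact permutation tests over mice, by listing every permutation in Python 3.11.15, with the adjustment in scipy 1.17.1. Chi-square per degree of freedom between replicates was 3.03 to 21.4 in CP CML and 8.25 to 22.8 in BC CML, so no library repeated another. Scripts were tested on simulated data. Overlaps of exons were read from GENCODE vM21, and promoters, for 6 of 9 members, from RefSeq (GRCm38.p6).

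Named genes were the 9 members, Mir142, up to 4 genes of each list with the lowest adjusted p or with no reads in a group, up to 3 abundant markers of each other cell type, and the 3 genes most like each abundant member. Genes named outside this rule were chosen after their values were seen, as were the ratios, marker sums and covariates. A few genes of the lists count in the totals and are not reported here by name. The members and lists were chosen with earlier results of these data known. Not in the table were Hba-a1, Hbb-bt, Hbb-b1, Ahsp, Ighm, Igkc, Trac, Trbc1 and Trbc2.

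Alternatives were edgeR's likelihood ratio test, which the study used, scaling by RLE or by library size alone, DESeq2 1.42.0, leaving out the filter or raising it to over 1 CPM in 6 or more libraries, a block for the replicate number on replicates 1 to 6 of each group, and leaving out each library in turn. For pairs of members they were a prior count of 0.5, library size alone and Spearman's rho.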

Additional observations from a re-analysis of the deposited data

How the results depend on the processing

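With each library left out in turn, the number of members that passed stayed at 4, red cell genes were 19 to 21, heme genes 6 to 7, platelet genes 15, transcription factors 12 to 13, Epor signalling genes 8 and carbonic anhydrases 2 to 4. The log2 fold change ranged over 0.39 to 0.64 for Alas2, 1.79 to 2.21 for Car1, 1.06 to 1.26 for Car2, 1.34 to 1.63 for Slc4a1 and -0.83 to -0.55 for Itga2b, and without a filter over 0.93 to 1.62 for Klf1, 0.33 to 0.82 for Epor, 2.24 to 3.07 for Pf4 and 1.58 to 2.47 for Ppbp. Under the likelihood ratio test, DESeq2, other scalings and other filters, the direction and call of each tested member stayed as reported, except that the stricter filter removed Car1. The platelet genes that passed were 10 to 20 over all alternatives. Without a filter 6 of the 9 members passed, 5 higher and 1 lower, in a fit where 26.0% of 17599 genes were higher. Among the 6, Pf4 and Ppbp had medians of 0.5 and 1 reads in CP CML. The neutrophil and monocyte covariate, chosen after seeing the data, left 0 members, 6 red cell genes, 4 heme genes and 5 transcription factors, and turned Alas2 to -0.05, and the cause was not tested. Carbonic anhydrases were 5 without a filter, where 14 were tested. Pairs of members that passed were 0 by Spearman's rho in CP CML and 1 with library size alone in BC CML, and the cause was not tested. With the replicate number as a block, Slc4a1 was at 1.79, Car2 at 1.33, Car1 at 2.59, Itga2b at -0.71 and Alas2 at 0.58, and 1 carbonic anhydrase passed. That fit left out CP CML replicates 7 and 8, whose numbers BC CML does not have, so these values also reflect fewer mice. The block changed no call of a member. The numbers only name the mice, which are different animals, and the deviations of same-numbered mice had r between -0.273 and 0.356. Depth limits Klf1, Epor, Pf4 and Ppbp, at 22 reads or fewer in every library.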
